A study of Mus musculus with 319 samples.

Results

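The genes described here are the nuclear-encoded subunits of the mitochondrial respiratory chain and ATP synthase in thymic tuft cells. They were taken as all protein-coding genes whose symbol begins with Nduf and a letter of the subunit series, Sdh, Uqcr, Cox4 to Cox8 or Atp5, and 88 such genes were found among the 48795 gene rows of the count tables. By symbol 37 belong to complex I, 8 to complex II, 8 to complex III, 18 to complex IV and 17 to complex V. The symbol rule also took in 4 assembly factors of complex II (Sdhaf1 to Sdhaf4) and Atp5s, which is named as a coupling factor of ATP synthase and lies outside its core. The 319 samples of the series are wells of mouse thymus epithelium. The sort kept events positive for EPCAM and Flare25, a reporter of Il25, a cytokine of tuft cells, low for MHCII (MHCIIlo) and negative for UVBlue, CD45 and CD11c. Libraries were made by Smart-seq2, which reads whole transcripts and tags no molecules. All mice were naive, of mixed sex and homozygous for the Flare25 reporter (Flare25/Flare25). Wild-type cells, of strain C57BL/6.Il25 and 6 weeks old, came as a June5 set and a June29 set in batch 1 and as a further set in batch 2. Cells of strain C57BL/6.Il25.Aire, labelled Aire-/- and 6 weeks old (5 weeks for 1 well), were all in batch 2, and Aire is the regulator that lets medullary thymic epithelium express tissue antigens. Each set was sorted from pooled thymi and no well is tied to an animal, so each set is 1 sample, the values below carry no replicate error, and no p-value was made from cells.

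The respiratory chain passes electrons from NADH (complex I) and succinate (complex II) through ubiquinone to complex III, from there by cytochrome c to complex IV, and on to oxygen. Complexes I, III and IV pump protons, and complex V, the ATP synthase, lets them flow back to make ATP. Mitochondrial DNA encodes some subunits of complexes I, III, IV and V, all subunits of complex II and most of the others are encoded in the nucleus, and the products of both genomes have to be assembled together. Tuft cells are chemosensory epithelial cells, and in the thymus they lie in the medulla.

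In all, 301 of 314 single-cell wells were kept: 29 of 31 June5 wells, 87 of 95 June29 wells, 89 of 92 wells of wild-type batch 2 and all 96 labelled Aire-/-. They held 45266 to 2927690 gene reads each, and the set medians ran from 539655 in June5 to 1150170 in June29. Of the 13 wells left out, 12 failed only the limit of 20% of reads from mitochondrially encoded (mt-) genes. At least 2 of 20 tuft cell markers were present in 29, 87, 89 and 95 of the kept cells, in the order of the sets above. Aire itself was at 18.9 CPM (reads scaled to 1000000 gene reads) in wild-type batch 2 and at 152.7 CPM in the set labelled Aire-/-. Counts per gene do not show which part of Aire the reads came from, so they do not check the genotype label. The 1 no-cell well with a column in the tables held 52 reads of the 88 genes, equal to 5257 CPM (95% Poisson interval 3926 to 6894).

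Some promoters of these genes hold short words that the symbol rule did not use. RefSeq (GRCm38.p6) held 75 promoters for 70 of the 88 genes, each running from before the gene's start to shortly after it. On either strand, GCGCATGC, the core of the NRF1 motif, was in 13.3% of these promoters and in 2.71% of all 32851 promoters of the table. AAGATGGC, the core of the YY1 motif, was in 12% against 2.75%, and CCGGAAGT, the core of the GABPA motif, was in 6.67% against 3.89%. At least 1 of the 3 words was in 23 of the 75 promoters (30.7%) and in 8.83% of all, so most of these promoters hold none of them. These are matches of letters, not sites shown to be bound.

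Of 9 AAGATGGC matches 8 lay after the gene's start, beginning at base 23 to 39 of the transcribed strand, a share of 88.9% against 40.2% of all matches in the table. In all 8 the ATG inside the word is an annotated start codon in GENCODE M21, against 45% of the 373 matches after the start over all promoters. The 373 include words on the opposite strand, which were counted as holding no start codon, so these shares are not of like matches. Complex I held 7 of the 9 genes with the word, and complex V held the other 2 (Atp5j2 and Atp5j). The sequences are shown because this word joins promoter and first codon; capitals mark AAGATGGC, and all are written in the direction of the gene.

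Ndufa3, chr7:3617384-3617413, plus strand: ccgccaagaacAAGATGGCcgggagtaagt
Ndufc1, chr3:51408915-51408944, minus strand: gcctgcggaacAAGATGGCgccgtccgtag
Atp5j2, chr5:145191500-145191529, minus strand: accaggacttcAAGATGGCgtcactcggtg
Ndufs7, chr10:80249462-80249491, plus strand: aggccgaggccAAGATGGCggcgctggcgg
Ndufa9, chr6:126849097-126849126, minus strand: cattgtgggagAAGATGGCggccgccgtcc
Ndufs6, chr13:73328433-73328462, minus strand: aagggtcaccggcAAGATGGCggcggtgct
Ndufs4, chr13:114388045-114388074, minus strand: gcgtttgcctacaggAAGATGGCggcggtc
Ndufb8, chr19:44555393-44555422, minus strand: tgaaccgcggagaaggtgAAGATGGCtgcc

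The NRF1 word lay before the start in 9 of 10 genes. It was found in members of all 5 complexes (3 in I, 1 in II, 2 in III, 1 in IV and 3 in V). Where the word overlaps its own reverse complement it forms the palindrome in capitals below, shown for 1 gene each of complexes I, IV and V, and for Atp5g2, to which the results return.

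Ndufa11, chr17:56717692-56717721, plus strand: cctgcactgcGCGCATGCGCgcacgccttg
Cox6a1, chr5:115349101-115349130, minus strand: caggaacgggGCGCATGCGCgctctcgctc
Atp5k, chr5:108434430-108434459, minus strand: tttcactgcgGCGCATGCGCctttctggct
Atp5g2, chr15:102671070-102671099, minus strand: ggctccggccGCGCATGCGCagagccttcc

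Summed over all kept cells of a set, the 88 genes took up 15342 CPM in June5, 9117 CPM in June29, 15526 CPM in wild-type batch 2 and 16598 CPM in the set labelled Aire-/-. June29 was thus the low set, and the other 3 lay close to each other. The order of the complexes by summed CPM was V, I, IV in 3 sets, while in June29 complex I (2875 CPM) stood just above complex V (2742 CPM). Summed CPM counts long transcripts more; summed per kilobase, complex I was first in all 4 sets (5200, 3310, 5225 and 5091 CPM per kb), and complex V (4081, 2171, 4281 and 4608) was below complex IV (4575, 2317, 4445 and 4262) except in the set labelled Aire-/-. On the scale of summed CPM complexes II and III were lowest, at 979 to 1495 CPM and 951 to 1565 CPM over the 4 sets. Both kinds of sum depend on the number of members, which is 37 in complex I and 8 in complex III. The median member of complex III was at 137.3 to 239 CPM per kb over the 4 sets, above that of complex I (76.2 to 130.9). It was the highest of the 5 complexes except in June5, where complex V led (232.2 against 189.8). Complex II had the lowest median member in every set (26.5 to 63.7). That median is over 8 members, 4 of which are assembly factors, so it does not rank the subunits of complex II alone. In single cells the share of nuclear gene reads from these genes ran from 0.324% over a median of 1.29% to 3.17% in June5, from 0.155% over 0.802% to 1.93% in June29, from 0.386% over 1.57% to 2.48% in wild-type batch 2 and from 0.336% over 1.75% to 3.86% in the set labelled Aire-/-. The ranges of all 4 sets overlapped. A median of 49, 49, 63 and 68 of the 88 genes had at least 5 reads in a cell, and 54, 40, 62 and 66 when each cell was thinned to 231697 reads, leaving out 30 shallower cells.

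**Figure D1:**
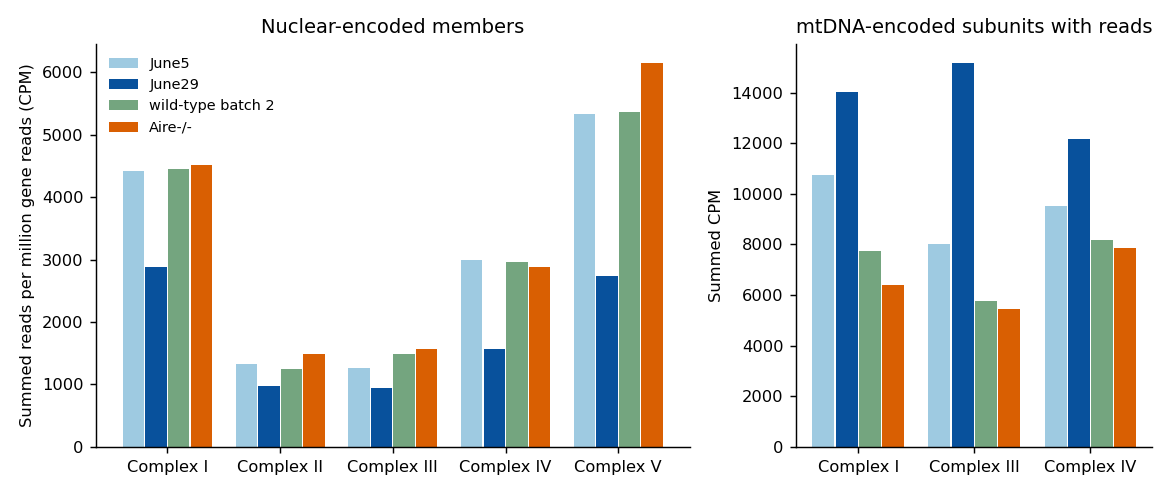
Summed CPM (axis from 0) of the nuclear-encoded members of each complex (left) and of the mtDNA-encoded subunits of complexes I, III and IV (right) in the 4 sets, 1 bar per set with no error bar since each set is 1 sample. June29 has the lowest bar in every nuclear-encoded complex (2742 CPM in complex V) and the highest in every mtDNA-encoded one (15160 CPM in complex III).

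Within complex V, Atp5b, the catalytic beta subunit of the F1 head, had the highest mean level per kilobase of transcript of all 88 genes (968 CPM per kb over the 4 sets). In single cells it ran from 63.6 over a median of 1581 to 4142 CPM in June5, from 0 over 618 to 2463 CPM in June29, from 0 over 1339 to 4466 CPM in wild-type batch 2 and from 3.86 over 2181 to 6317 CPM in the set labelled Aire-/-. The sets overlap throughout, with June29 lowest in median and maximum. Atp5e, the epsilon subunit, and Atp5a1, the alpha subunit that alternates with beta in the head, followed at 357.3 and 344.5 CPM per kb. Atp5s was the lowest member of complex V at 17.01 CPM per kb.

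In complex IV, cytochrome c oxidase, Cox8a led at 817 CPM per kb, followed by Cox4i1 (627) and Cox6a1 (589), all small nuclear-encoded subunits around the catalytic core that mitochondrial DNA encodes. Cox8a ran from 2.05 over 368 to 1119 CPM in June5 cells, from 0 over 159.5 to 679 CPM in June29, from 9.57 over 492 to 1472 CPM in wild-type batch 2 and from 9.82 over 485 to 1595 CPM in the set labelled Aire-/-. Here too the medians set June29 apart, and the ranges overlapped. In complex III the highest level per kilobase was that of Uqcrh, the hinge protein that meets cytochrome c (466 CPM per kb), ahead of Uqcr11 (254) and Uqcr10 (248.7). Uqcrc2, a core protein of that complex, was lowest at 69.4 CPM per kb.

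Complex I, the largest of the 5, had its highest levels per kilobase in 3 accessory subunits, Ndufb9 (379), Ndufa1 (276) and Ndufa7 (240). Ndufb2 was lowest at 5.4 CPM per kb, although 51.7% to 77.1% of cells had at least 5 of its reads, and its level per kilobase rests on the length of its principal transcript. In complex II, Sdha, the flavoprotein that oxidizes succinate, stood at 235 CPM per kb, the iron-sulfur subunit Sdhb at 176.5 and the membrane anchor Sdhd at 136.02. Sdhaf3, an assembly factor, was lowest at 1.3 CPM per kb.

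Where a subunit exists in tissue-specific forms, these cells held reads of the widespread form and few or none of the other. Cox4i1 was at 322 to 560 CPM, and Cox4i2, known from lung, had no cell with 5 reads in any set. Cox8a was at 213 to 574 CPM while Cox8c had no read in any kept cell and Cox8b was above 0 in the set labelled Aire-/- alone (3.70 CPM, from 2.08% of cells). Cox6a1 was at 220 to 486 CPM and its heart and muscle form Cox6a2 at 0 to 8.83 CPM. Cox6b1 stood at 170 to 378 CPM against at most 5.57 CPM for Cox6b2, a testis form. Cox7a2 and Cox7a2l were at 110 to 208 CPM and 105.9 to 239 CPM, and the muscle form Cox7a1 was at 0.349 to 5.20 CPM. Cox7b2 stayed at or below 2.84 CPM against 42.7 to 107.02 CPM for Cox7b. Ndufa4, which carries a complex I symbol but is a subunit of complex IV, was at 100.4 to 163.4 CPM, and Ndufa4l2, known as a hypoxia-induced gene, at 0 to 9.86 CPM. All forms named here as low were below 20 CPM in every set, the minimum for the comparisons that follow.

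Atp5g1, Atp5g2 and Atp5g3 encode the same mature c subunit of the proton-driven rotor from different precursors, and all 3 were present. Atp5g3 was highest in June5 (167.9 CPM), June29 (79.1 CPM) and wild-type batch 2 (153.8 CPM), and Atp5g1 was at 102.1, 58.9 and 98.6 CPM. In the set labelled Aire-/- Atp5g1 was at 126.1 CPM and Atp5g3 at 117.03 CPM. On a scale per kilobase Atp5g3 was above Atp5g1 in every set (109.4 to 232 against 12.5 to 26.7 CPM per kb). The size of that gap rests on the principal transcripts used, of 723 bases for Atp5g3 and 4715 bases for Atp5g1.

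For each comparison of 2 sets a size rule stands in for a test: the set with the higher level must reach 20 CPM, the levels, each with 1 CPM added, must lie 1 or more apart on the log2 scale, and the percent of positive cells (5 or more reads) must differ the same way by 15 points or more. A gene positive in over 85% of cells of the set with the lower level cannot meet it. Cells labelled Aire-/- were set against wild-type batch 2, the wild-type set of the same batch. Of the 88 genes, 79 reached 20 CPM, none met the rule as higher and 1 met it as lower, while of all 8267 genes at that level 1.02% met it as higher and 0.399% as lower. The share of positive cells left no room to be called higher for 27 of the 79, Atp5b and Cox8a among them, and none to be called lower for 47, but no member was past 1 or -1 on the log2 scale without meeting the rule. Of the 79 folds 40 were above 0 and 39 below, with a median log2 fold of 0.0011 and the middle 50% between -0.14 and 0.17. Over all genes the median was -0.03 and the middle 50% lay between -0.47 and 0.38. By complex the medians were -0.0067 (I), 0.099 (II), -0.032 (III), -0.027 (IV) and 0.043 (V).

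The 1 gene that met the rule was Atp5s, at chr12:69724950-69744660 (GRCm38, GENCODE M21) on the plus strand, with no word of 50 bases shared with another gene. It was at 41.8 CPM in June5, 5.34 CPM in June29, 54.2 CPM (95% Poisson interval 52.3 to 56.2, counting error only) in wild-type batch 2 and 7.41 CPM (6.80 to 8.06) in the set labelled Aire-/-, a log2 fold of -2.72. At least 5 reads were found in 5 of 29, 8 of 87, 21 of 89 and 6 of 96 cells, and the median cell held no read in any set. The highest cells held 317, 286, 574 and 270 CPM. The groups overlap, since most cells of every set held none, and the sets differ in how many cells held Atp5s reads and in the highest cells. Leaving out the wild-type cell with 25.8% of its reads left a log2 fold of -2.33. The authors' well table divides batch 2 further into batches numbered 1 and 2, in which 10 of 48 and 11 of 41 wild-type cells were positive against 3 of 48 and 3 of 48 labelled Aire-/-. In the first of these Atp5s did not meet the size rule and in the second it did.

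**Figure D2:**
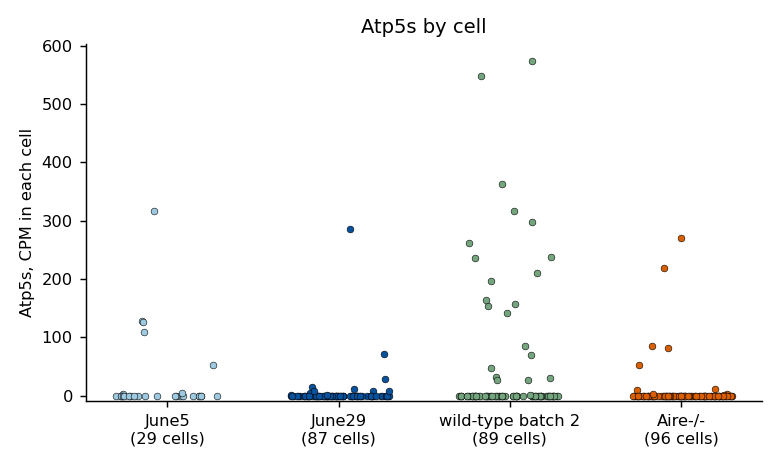
Atp5s in every kept cell (points, CPM) of the 4 sets, with points spread sideways within a set for legibility. Most cells lie at 0, the highest wild-type batch 2 cell is at 574 CPM and the highest cell labelled Aire-/- at 270 CPM.

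The other extremes of this comparison did not meet the rule. Above 0 they were Sdhaf2 (log2 fold 0.78), an assembly factor that helps attach flavin to Sdha, Ndufa10 (0.70), Uqcrc2 (0.56), Ndufv1 (0.49), which binds NADH, and Ndufb10 (0.45). Below 0, after Atp5s, they were Sdhaf4 (-0.80), Ndufa11 (-0.45), Ndufa2 (-0.41) and Atp5g3 (-0.39). Sdha had a log2 fold of 0.45 and did not meet the rule either. In single cells it ran from 0 over 373 to 1776 CPM in wild-type batch 2 and from 0 over 751 to 3846 CPM in the set labelled Aire-/-. The higher median of the latter came with overlapping ranges. The share of positive cells was higher in the set labelled Aire-/- for 74 of the 79 genes (93.7%) and for 66.3% of all 8267 genes at 20 CPM, for example 96.9% against 91% for Uqcrh and 92.7% against 86.5% for Ndufb9. Its cells also held more reads (a median of 638298 against 566923), and the part of depth in these shares was not tested.

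By median fold, June29 lay further from the other wild-type sets than cells labelled Aire-/- lay from wild-type batch 2. Against June29, wild-type batch 2 had 75 of 78 folds above 0, with a median log2 fold of 0.79, beside 0.16 over all genes at 20 CPM. By the size rule 11 genes were higher and none lower, where 3.38% of all 8513 genes were higher and 2.68% lower. A further 8 of the 78 were past 1 on the log2 scale without meeting the rule, as were 1171 of all 8513 genes. The medians by complex were 0.76 (I), 0.43 (II), 0.68 (III), 0.91 (IV) and 0.95 (V), so that complexes IV and V stood furthest apart and complex II least. The folds below 0 were those of Ndufa10 (-0.40), Ndufb8 (-0.27) and Ndufb7 (-0.05).

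**Figure D3:**
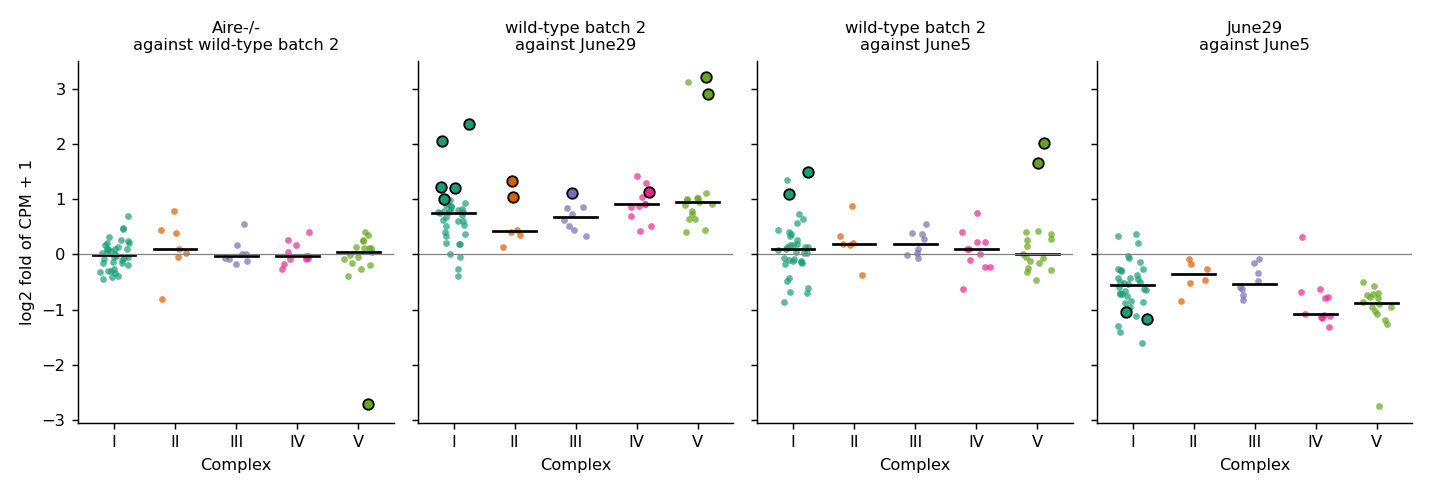
Log2 fold of CPM + 1 of each member (points, by complex) in the 4 comparisons of sets, for members at 20 CPM or more in the higher set; black lines are medians over the members of a complex and outlined points met the size rule. The folds lie around 0 in the first panel apart from Atp5s (-2.72), above 0 in the second (median 0.79) and below 0 in the fourth (median -0.69).

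The 11 genes fall into a group of large folds and a group near the threshold. Atp5g2 was at 5.97 CPM (95% Poisson interval 5.52 to 6.45) in June29 and 63.7 CPM (61.7 to 65.8) in wild-type batch 2, a log2 fold of 3.21. Its cells ran from 0 over a median of 0 to 42.2 CPM in June29 and from 0 over 49.7 to 173.5 CPM in wild-type batch 2, so the median cell of the latter was above every June29 cell. Atp5l, subunit g of the membrane part of ATP synthase, was at 13 and 104.5 CPM (log2 fold 2.91), with cells from 0 over 8.93 to 42.8 CPM and from 0 over 77.9 to 435 CPM. Again the median cell of wild-type batch 2 exceeded the highest June29 cell. Ndufs5, an accessory subunit of complex I, was at 14.1 and 77 CPM (log2 fold 2.37), and its median of 66.4 CPM in wild-type batch 2 was just above the highest June29 cell (64.3 CPM). Ndufb4, another accessory subunit, was at 10.3 and 45.6 CPM (log2 fold 2.05) with more overlap, since its wild-type batch 2 median was 34.3 CPM and its highest June29 cell was at 65.7 CPM.

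The other 7 were the assembly factor Sdhaf4 (1.34), Ndufs8 (1.22) and Ndufs3 (1.20), both of which belong to the arm of complex I that passes electrons to ubiquinone, Cox7b (1.13), Uqcrb (1.12), Sdhc (1.04), a membrane anchor of complex II, and Ndufs4 (1.02). In single cells Ndufs8 ran from 0 over 1.46 to 838 CPM in June29 and from 0 over 127.07 to 997 CPM in wild-type batch 2, with nearly the same range and different medians. Without the wild-type batch 2 cell that held most of their reads, Sdhc (0.96) and Ndufs4 (0.93) no longer met the rule and the other 9 of the 11 did. Atp5s had a log2 fold of 3.12 but missed the rule for its shares of positive cells (9.2% and 23.6%).

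Against June5, the other wild-type set, wild-type batch 2 had 49 of 78 folds above 0 and a median log2 fold of 0.10, beside 0.085 over all genes. The rule was met by 4 genes as higher and by none as lower, where 1.9% of all 8561 genes were higher and 3.97% lower. Among them were Atp5g2 (63.7 against 15.0 CPM, log2 fold 2.02) and Atp5l (104.5 against 32.5 CPM, 1.65). The others were Ndufs5 (77 against 26.5 CPM, 1.504) and Ndufb4 (45.6 against 20.8 CPM, 1.10). The same genes had the largest called folds against June29. Both comparisons use the same wild-type batch 2 cells. June29 against June5, both of batch 1, had 4 of 77 folds above 0 and a median log2 fold of -0.69, beside -0.11 over all genes. Here Ndufs8 (-1.18) and Ndufa8 (-1.05) met the rule as lower and none as higher, against 3.4% of all 8358 genes lower and 1.81% higher. The June5 cell with most reads of a gene held 24.1% of the Ndufs8 reads and 18% of the Ndufa8 reads, and without that cell neither gene met the rule (-0.92 and -0.95). Both comparisons with June5 share its cells.

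The 4 genes that were higher in wild-type batch 2 than in both batch 1 sets also share much sequence with other genes. Of all 50-base words of the principal transcript, 87.4% recur in other genes for Atp5g2 (chr15:102662864-102672352, GRCm38), 84.8% for Atp5l (chr9:44912557-44920742), 37% for Ndufb4 (chr16:37647170-37654453) and 31.1% for Ndufs5 (chr4:123712710-123718202), all on the minus strand. The other genes with the most of these words are processed pseudogenes in each case. Counting can split or drop reads of such words, so the levels of these genes are uncertain, and the part of shared words in the difference between batches was not tested. Over the 12 members with at least 30% of shared words the median log2 fold of wild-type batch 2 against June29 was 1.12, and over the 42 with under 5% it was 0.74, with 40 of 42 above 0. The Spearman correlation of that fold with the share of shared words was 0.33 over 78 members, which share their cells and libraries. Against June5 the 42 members with under 5% had a median of 0.017 and none met the rule. Within batch 2, by contrast, the fold of cells labelled Aire-/- had a Spearman correlation of 0.0044 with the shared words over 79 members.

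**Figure D4:**
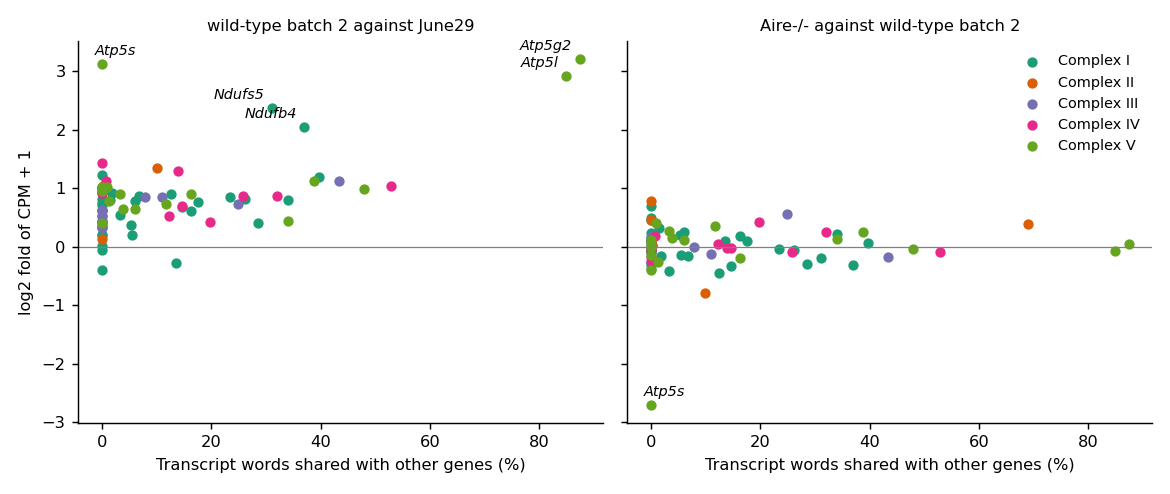
Log2 fold of CPM + 1 of each member (points, coloured by complex) against the percent of 50-base words of its principal transcript that recur in other genes, for wild-type batch 2 against June29 (left) and cells labelled Aire-/- against wild-type batch 2 (right); members with a log2 fold of 2 or more in size are named. Atp5g2 and Atp5l, with over 80% of shared words, have log2 folds of 3.21 and 2.91 on the left and of 0.04 and -0.08 on the right.

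The subunits encoded by mitochondrial DNA went the other way between sets. Summed over complexes I, III and IV they took up 28268 CPM in June5, 41340 CPM in June29, 21691 CPM in wild-type batch 2 and 19716 CPM in the set labelled Aire-/-. For each read of the 88 nuclear genes there were 1.84, 4.53, 1.40 and 1.19 reads of mtDNA-encoded subunits. Of the 9 mtDNA-encoded subunits at 20 CPM, 1 (mt-Nd3) had a fold above 0 in wild-type batch 2 against June29 and the median log2 fold was -0.85. mt-Cytb, the only mtDNA-encoded subunit of complex III, was at 8013, 15160, 5759 and 5462 CPM in the order of the sets above, and mt-Co1, a catalytic subunit of complex IV, at 9522, 12177, 8191 and 7869 CPM. The size rule says nothing of these 9, since each was positive in over 85% of cells of every set and a gap of 15 points was out of reach. In wild-type batch 2 against June29, 2 of them were past -1 on the log2 scale, mt-Cytb (-1.40) and mt-Nd4 (-1.15). mt-Co2, mt-Atp6 and mt-Atp8 were listed at 0 in every well and mt-Co3 had 32 reads over all wells. For mt-Co2, mt-Atp6 and mt-Co3, at least 99.5% of words recur in nuclear copies on chromosome 1, and for mt-Atp8 none does. mt-Nd4l (98.8% of words shared) had 159581 reads and mt-Nd3 (98%) had 15938. The part of shared words in the counts of 0 was not tested. The mt- share used below thus holds few or no reads of mt-Co2, mt-Co3, mt-Atp6 and mt-Atp8. It also holds ribosomal RNA, which encodes no subunit. Of summed gene reads, mt-Rnr2 took up 2.24%, 3.01%, 2.06% and 1.62% in the order of the sets above. For mt-Rnr1 these values were 0.288%, 0.439%, 0.238% and 0.201%, and for all mt- genes together 5.36%, 7.58%, 4.47% and 3.79%.

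Cells with a larger mt- share had a smaller share of nuclear subunit reads, taken as a percent of nuclear gene reads so that mt- reads are not in the total. The Spearman correlation across cells was -0.53 in June5 (29 cells, Pearson's r -0.48), -0.68 in June29 (87 cells, r -0.66), -0.63 in wild-type batch 2 (89 cells, r -0.66) and -0.14 in the set labelled Aire-/- (96 cells, r -0.36). Without the 2 cells farthest from the median mt- share the Spearman correlation was -0.42, -0.67, -0.60 and -0.099. Within the batches numbered 1 and 2 of the well table it was -0.66 and -0.57 in wild-type batch 2, and -0.12 and -0.13 in the set labelled Aire-/-. The difference between the sets was not tested. The cells of a set share their pool and library preparation, and the mt- share also went with depth: its Spearman correlation with gene reads was -0.69, -0.55, -0.62 and -0.22, and that of nuclear subunits with gene reads was 0.53, 0.67, 0.47 and 0.0047. With gene reads per read of the ERCC spike-ins, the Spearman correlation of the mt- share was -0.75, -0.60, -0.72 and -0.46. That of nuclear subunits was 0.66, 0.66, 0.58 and 0.27, so in the set labelled Aire-/- it was above the value with gene reads. The part of depth, or of reads per spike-in read, in the relation was not tested.

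**Figure D5:**
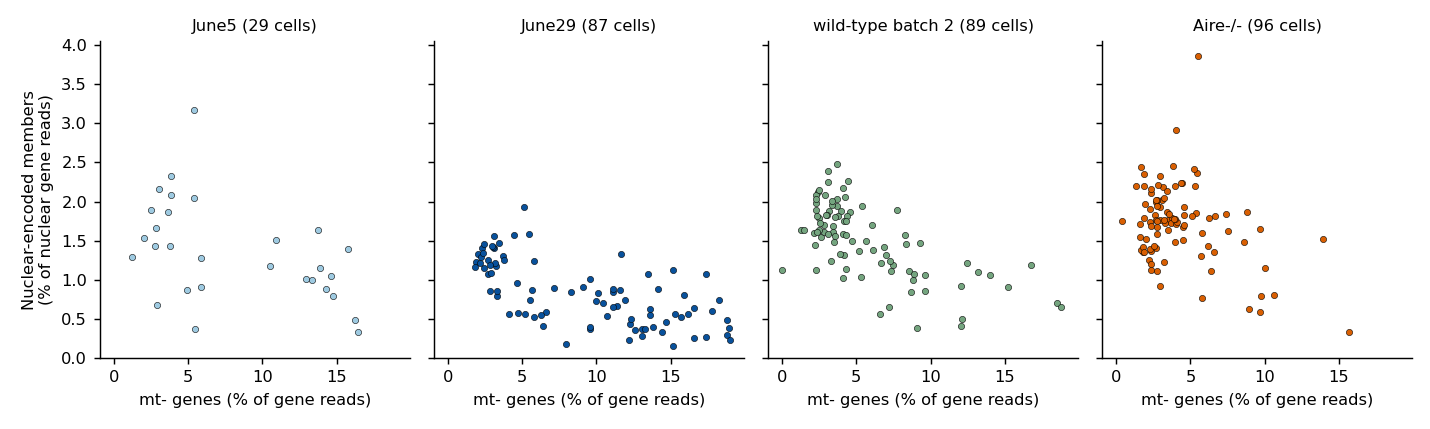
Percent of nuclear gene reads from the 88 nuclear-encoded members against percent of gene reads from mt- genes in each kept cell (points) of the 4 sets, on common axes. The median share on the y axis is lower among cells over 5% of mt- reads in each set (0.573% in June29 and 1.11% in wild-type batch 2), while the highest single cell lies over 5% in June5 (3.17%), June29 (1.93%) and the set labelled Aire-/- (3.86%).

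Cells were then divided at 5% of mt- reads, a division made after the values were seen, and the negative relation was larger in size above it. Among cells at or under 5% the Spearman correlation was 0.19 in June5 (12 cells), -0.16 in June29 (29), 0.0092 in wild-type batch 2 (54) and 0.18 in the set labelled Aire-/- (70). Among cells over 5% it was -0.49 (17 cells), -0.35 (58), -0.51 (35) and -0.63 (26). The median share of nuclear subunits was 1.60%, 1.23%, 1.77% and 1.76% in the cells at or under 5%, and 1.05%, 0.573%, 1.11% and 1.56% in those over it. Taken over the cells at or under 5% alone, the median log2 fold of the members was 0.51 in wild-type batch 2 against June29 (3 genes met the rule) and -0.11 in June29 against June5 (1 met it, as higher), both nearer to 0 than over all kept cells; over all genes the medians there were -0.0075 and 0.080. In the same cells the median moved away from 0 in wild-type batch 2 against June5, from 0.10 to 0.33 (all genes 0.098), and was -0.093 in cells labelled Aire-/- against wild-type batch 2 (all genes -0.062). The share of all genes that met the rule in the cells at or under 5% was not counted. Cells with over 5% made up 58 of 87 in June29 and 26 of 96 in the set labelled Aire-/-.

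By complex the correlations were largest in size for II and V in each set. In June29 the Spearman correlation was -0.54 (I), -0.67 (II), -0.41 (III), -0.49 (IV) and -0.70 (V), and in wild-type batch 2 it was -0.36, -0.63, -0.42, -0.38 and -0.63. June5 gave -0.26, -0.68, -0.33, -0.34 and -0.60, and the set labelled Aire-/- gave 0.027, -0.31, -0.096, 0.059 and -0.19. Among single genes found in enough cells, 3 of 56 had a Spearman correlation above 0 in June29, 6 of 70 in wild-type batch 2, 17 of 61 in June5 and 30 of 74 in the set labelled Aire-/-. Atp5a1 was at -0.53, -0.51, -0.66 and -0.29 in these sets, Atp5c1, the central stalk subunit gamma, at -0.68, -0.43, -0.54 and -0.15, and Sdha at -0.58, -0.42, -0.45 and -0.25. Uqcrh, Cox4i1 and Ndufb9, abundant members of the other complexes, were at -0.40, -0.43 and -0.39 in June29 and at 0.15, -0.016 and 0.087 in the set labelled Aire-/-.

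The complexes also went together from cell to cell, and complex II went more with complex V than with complex I in each set. In the set labelled Aire-/- complex II was not close to complex V. Its Spearman correlation there was 0.27 with complex V, 0.27 with complex III and 0.12 with complex IV. The Spearman correlation between the shares of complexes I and IV was 0.67 in June5, 0.74 in June29, 0.61 in wild-type batch 2 and 0.56 in the set labelled Aire-/-. Between complexes IV and V it was 0.83, 0.61, 0.51 and 0.31, between complexes I and II 0.23, 0.50, 0.27 and 0.16, and between complexes II and V 0.69, 0.65, 0.56 and 0.27. These are relations across cells of 1 sample that share depth and library, and are given as description.

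Other mitochondrial and metabolic lists were set beside the 88 genes. In the comparison that follows, 1.02% of all 8267 genes at 20 CPM met the size rule as higher and 0.399% as lower. In cells labelled Aire-/- against wild-type batch 2, tricarboxylic acid cycle enzymes had a median log2 fold of 0.050 and 0 of 19 met the rule, assembly factors 0.11 and 0 of 27, mitochondrial ribosomal proteins -0.029 and 0 of 69, and mitochondrial import and carriers 0.21 and 0 of 22. Of 22 further subunits and electron carriers outside the symbol rule, 16 were above 0 and 1 met the size rule as higher. It was Coq3, a methyltransferase of ubiquinone synthesis (44.6 against 6.81 CPM, log2 fold 2.55). Glycolysis genes stood apart from these lists in size: 14 of 17 were above 0, the median was 0.87, and 4 met the rule as higher. Among them were Pfkl (462 against 177.6 CPM, log2 fold 1.38) and Tpi1 (1100 against 476 CPM, 1.21). The others were Pgk1 (252 against 89.3 CPM, 1.49) and Ldha (720 against 314 CPM, 1.19). Markers of Aire-expressing medullary epithelium, MHC class II genes among them, moved with this comparison: 3 of 6 met the rule as higher, and the 8 listed summed to 1064 CPM in wild-type batch 2 and 3687 CPM in the set labelled Aire-/-, with medians over cells of 296 and 845 CPM and no defining marker at 0 in either. Their part in these values was not tested.

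In wild-type batch 2 against June29 the lists are set beside a median of 0.16 over all genes. Of all 8513 genes at 20 CPM, 3.38% met the rule as higher and 2.68% as lower. Cytosolic ribosomal proteins had a median log2 fold of 1.26 (33 of 85 higher, 1 lower), the other subunits and electron carriers 0.68 (3 of 21 higher, 2 lower), mitochondrial import and carriers 0.56 (2 of 21 higher), mitochondrial ribosomal proteins 0.54 (11 of 68 higher), glycolysis 0.57 (2 of 17 higher), tricarboxylic acid cycle enzymes 0.39 (2 of 19 higher) and assembly factors 0.27 (1 of 23 higher). Regulators of mitochondrial biogenesis, a list with Nrf1, Gabpa and Yy1 that name the promoter words above, had a median of 0.19, near that of all genes, with 8 of 15 above 0 and 0 of 15 meeting the rule. In June29 and wild-type batch 2 Nrf1 was at 27.6 and 31.6 CPM, Yy1 at 45.5 and 52.7 CPM and Gabpa at 8.40 and 25.2 CPM.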

How the data were processed

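The deposited count tables, 1 for wild-type and 1 for Aire-/- wells, hold counts of reads by gene. Per the submitters' processing notes, STAR, Subread, featureCounts 1.5.3, R 3.4.0 and GRCm38 were used; annotation, strand setting and handling of reads with several matches: not given in the sources used here. A deposited table of a score by gene and well served only for its list of wells, as an alternative.

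Symbols, lengths and shared words came from GENCODE M21. A well was kept with at least 10000 gene reads, 1000 genes and at most 20% of mt- reads, spike-ins left out; no doublet caller was run, since wells were sorted to hold 1 cell. Reads were summed per set, divided by gene reads and multiplied to CPM, in Python 3.11.15. Levels per kilobase use the principal transcript. Poisson intervals (95%) cover counting error only, since reads are not independent molecules. The size rule is no test. Named genes were the 3 highest and the lowest of each complex per kilobase, tissue isoforms, those that met the size rule, the 5 highest and 5 lowest folds in cells labelled Aire-/-, and those with shared words or promoter words. The genes and lists were chosen with earlier results of these data known. Settings tried were edgeR 4.0.16 normalization, other scalings, filters, thinning and subsets of cells and members. Columns that matched no sample numbered 0. The no-cell wells of batch 2 were not analysed here.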

Additional observations from a re-analysis of the deposited data

Results flagged for a closer look

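The 50-cell wells of batch 2, which enter no comparison, held the 88 genes above the level of the no-cell well. They summed to 22031 CPM in the well labelled WT and 22119 CPM in the well labelled AIREKO, against 5257 CPM (52 reads) in the no-cell well, which is of batch 1 and so of another batch. Both lie above the sums of the single-cell sets (9117 to 16598 CPM). In these wells 1.63 and 0.583 reads of mtDNA-encoded subunits were found for each read of the 88 genes. Each kind is a single well, so these values have no replicate check.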

How the results depend on the processing

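No paired analysis was possible because each set is 1 pool and well numbers name wells only. Of 51 alternative medians over members 50 stayed within 1.5-fold of the reported one, and of 28 alternative correlations 23 moved by no more than 0.1. A limit of 1.5-fold is wide beside reported median log2 folds of 0.0011 and 0.10, so staying within it says little of these. For cells labelled Aire-/- against wild-type batch 2, ERCC scaling gave 2 genes (1 higher, 1 lower). It shifted the median of all genes from -0.03 to 0.57 and that of the members from 0.0011 to 0.57. In the same comparison 1 read as the threshold of a positive cell gave 0, and batch 1 of the authors' well table alone gave 0. In wild-type batch 2 against June29 the count of 11 became 22 with the mean of per-cell CPM, 34 in thinned cells, 4 over members with under 5% of shared words and 3 in cells with at most 5% of mt- reads, while the median stayed between 0.51 and 0.99. Against June5 the count of 4 became 0 over members with under 5% of shared words. In June29 against June5 the count of 2 became 1 with TMM, 19 in thinned cells and 1 in cells with at most 5% of mt- reads, where the median moved from -0.69 to -0.11. That subset and one by tuft markers, which changed no count by over 1.5 times, were added after the data were seen. For settings that changed the cells, the scaling or a threshold, the share of all genes meeting the rule was not counted. The counts of members under those settings thus have no background beside them. The Spearman correlation in June5 became -0.33 with the 13 protein-coding mt- genes only, -0.38 in thinned cells and -0.42 without the 2 cells farthest from the median mt- share; it became -0.53 with the 13 genes in June29 and -0.51 in thinned wild-type batch 2 cells. The cause of these moves was not tested. Leaving out 1 cell ended the calls of Sdhc, Ndufs4, Ndufs8 (June29 against June5) and Ndufa8.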
